A study of Mus musculus with 12 samples.

Results

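Replication-dependent histone genes make the histone proteins that package newly copied DNA. They were taken here as every protein-coding row of the deposited table whose name begins with Hist1h, Hist2h, Hist3h or Hist4h, and 67 of the 54532 gene rows met that rule. The 67 genes comprise 6 genes of the linker histone H1, 18 of H2a, 18 of H2b, 12 of H3 and 13 of H4. Of these, 54 lie in the Hist1 cluster on mouse chromosome 13, 10 in the Hist2 cluster on chromosome 3, 2 in Hist3 on chromosome 11 and 1, an H4 gene, in Hist4 on chromosome 6.

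RNA was sequenced from mouse haematopoietic stem and progenitor cells (HSPCs), sorted as Lin-ckit+ cells from fresh bone marrow and not cultured. Dnmt3a, which encodes a DNA methyltransferase, was intact in the Dnmt3a+/+ (WT) cells, and 1 of its alleles had the R878H change in the mutant (RH) cells. Both genotypes were C57BL/6 and carried the Mx1-cre transgene, whose promoter responds to interferon in blood cells and in other tissues. Vehicle (VEH) or metformin (MET), a drug for diabetes, was given for 1 month in a competition experiment in live mice. The stated purpose was to learn how metformin acts on Dnmt3a+/+ and mutant HSPCs. Each of the 4 combinations of genotype and treatment had 3 libraries. The labels name 2 animals per treatment group without linking animals to libraries, so the p-values rest on a spread that may be partly technical.

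Total counts per library ran from 13359583 to 21938003. The libraries came in 2 deposit rounds that cross all groups, though not evenly. Round 1 is the 6 libraries that a smaller table also holds (RH MET 1 and 2, RH VEH 1, WT MET 1, and WT VEH 1 and 2), and round 2 is the other 6. Round 1 thus has 2 libraries of WT VEH and of RH MET but 1 of WT MET and of RH VEH. Round 2 has the reverse. RH VEH 2 and WT MET 2 stood apart: genes of the mitochondrial genome took 40.8% and 33.3% of their counts, and 1.57 to 4.32% elsewhere. Markers of HSPCs (10 of 10 genes) passed the filter on low counts, with summed levels between 656 and 1153 CPM (counts scaled to a common library size) in every library.

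Histone proteins are needed in bulk when DNA is copied, and these genes are transcribed in S phase by a dedicated machinery. Most of their mRNAs have no poly(A) tail. They end instead just after a conserved stem-loop, which is bound by the protein SLBP, and the U7 small nuclear RNA guides the cut. In cells that leave the cell cycle, some of the same genes are instead read through to a later poly(A) signal and give polyadenylated mRNA. A library made by capturing poly(A) tails therefore sees mainly the second kind, and a library made from RNA depleted of ribosomal RNA sees both. The sources used here do not give which of these was done.

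The stem-loop sequences show which annotated models hold the signal for the tail-less end, and they separate H4 from the other types. The transcript models of GENCODE release M21, all 67 of which have the same gene start and end as the deposited table, were searched after the stop codon for GG, any 4 bases, TT, any 6 bases and CC, with a perfect stem of 6 base pairs. The search found 44 genes with such a loop and 6 distinct sequences of 16 bases. In the stretches of transcript given here, 5′ to 3′, capitals mark the stem-loop and lower case the flanking bases of the 3′ UTR.
Hist1h1c: ccaaaaGGCTCTTTTCAGAGCCaccactcc
Hist1h2bg: cccaaaGGCTCTTTTCAGAGCCacccatac
Hist1h3c: aaaaaaGGCTCTTTTAAGAGCCacctaaga
Hist1h4i: cttaaaGGCCCTTTTTAGGGCCaccacaaa
Hist1h4d: accaaaGGCCCTTTTCAGGGCCactacctt

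Among H1, H2a, H2b and H3 genes, 26 had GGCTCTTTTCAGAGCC, 6 had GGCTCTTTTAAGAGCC and 1, an H2a gene, had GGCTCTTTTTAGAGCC. None of the H4 genes had any of these. The H4 loops were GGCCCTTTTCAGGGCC in 7 genes, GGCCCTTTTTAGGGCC in 2 and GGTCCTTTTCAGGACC in 2. The stem of every H4 gene with a loop thus differed from that of every other gene with a loop. The 23 genes without a match include models that stop short of a loop and models that are spliced, such as Hist1h2bc, an H2b gene whose model has 2 exons. Many of the 23 models, such as that of Hist1h1b, have 0 bases after the stop codon, where no loop could be found. The lack of a match is therefore not the lack of a loop in the gene.

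The most abundant genes with a loop were annotated well past it. A limit of 100 bases past the loop was chosen after the values were seen. In 22 genes the model ran on beyond that limit, and these held 69.2% of all histone gene counts. In another 22 the model ended within the limit, and these held 8.79%. The 23 genes without a loop in the model held 22.05%, most of it in Hist1h2bc and Hist2h2be. The poly(A) signal AATAAA was in the last 60 bases of 9 of the models that ran on and in 0 of those that ended near the loop. In most models that ended near the loop, those 60 bases reach back into the loop itself. The contrast thus follows partly from the limit. Counts add up over transcript length, so longer models collect more. Per kilobase (kb) of gene length, the median mean level was 2.32 CPM per kb in the genes that ran on and 2.94 in those that did not. The high share therefore came from a few genes: Hist1h1c, whose model goes 840 bases past the loop, Hist1h4i (330), Hist3h2ba (169) and Hist1h2bg (155).

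**Figure D1:**
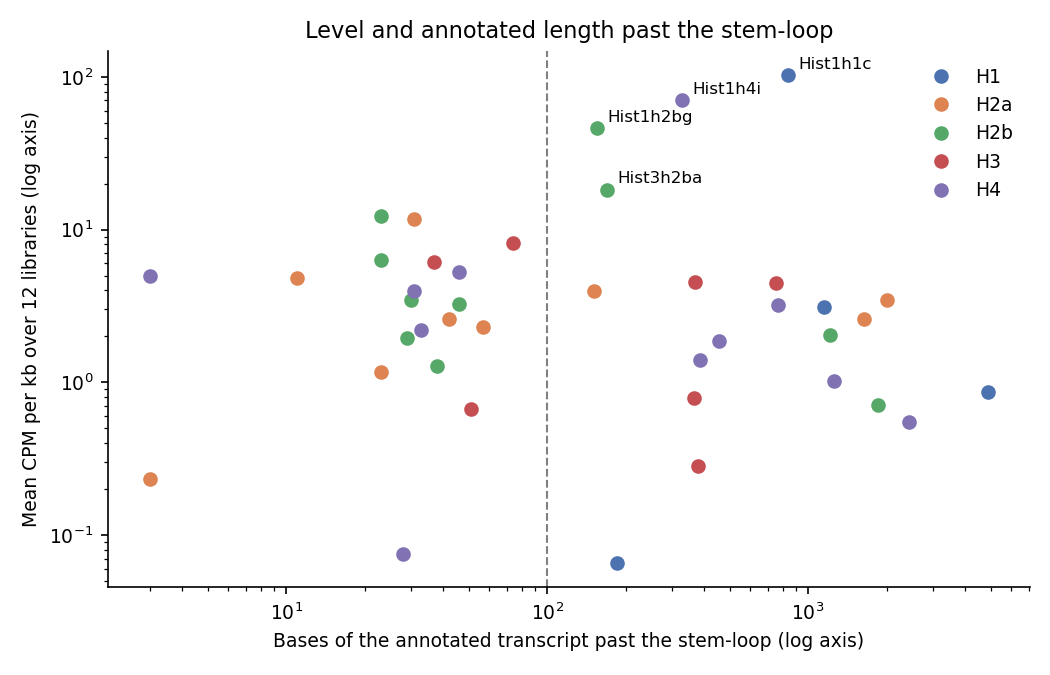
Mean level of each histone gene over the 12 libraries, in CPM per kb of gene length (log axis), against the number of bases in its annotated transcript past the stem-loop (log axis), for the 41 genes with a loop and with counts. Colours give the histone type and the dashed line marks 100 bases; the 4 named genes are the highest and all lie to the right of it.

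Promoters of these genes are shown because the CCAAT box, among the motifs searched, also set H4 genes apart from the other types. RefSeq promoters (build GRCm38.p6, 250 bases before to 50 after the start site) were matched for 62 of the 67 genes, and 4 motifs were searched on both strands. They were the TATA box, as TATAAA, the CCAAT box, the core of the octamer read by POU-domain factors, as ATTTGCA, and a box described in H1 promoters, as AAACACA. The CCAAT box was in 85.5% of the histone promoters and in 37.9% of all 27025 promoters of the table. It was in every H1, H2a, H2b and H3 promoter (6, 18, 16 and 10) but in 3 of 12 H4 promoters. TATAAA was in 56.5% of histone promoters against 14.2% of all. By type it ran from 40% in H3 to 66.7% in both H1 and H4, so it did not set H4 apart. ATTTGCA was in 7 of 18 H2a and 6 of 16 H2b promoters, and in 0 of the H1, H3 and H4 promoters, against 3.98% of all. For every motif the H2a and H2b counts are not separate. In the head-to-head pairs described below, a motif between the start sites can be counted for both genes. AAACACA was in 5 of 6 H1 promoters against 7.14% of all. In the 250 bases before the start site given here for 3 genes, 5′ to 3′ along the gene's strand, capitals mark these motifs on either strand. The sequences lie at chr13:23738557-23738806 (Hist1h1c, plus strand), chr13:22041363-22041612 (Hist1h4i, minus strand) and chr13:23683960-23684209 (Hist1h2ac, minus strand).
Hist1h1c: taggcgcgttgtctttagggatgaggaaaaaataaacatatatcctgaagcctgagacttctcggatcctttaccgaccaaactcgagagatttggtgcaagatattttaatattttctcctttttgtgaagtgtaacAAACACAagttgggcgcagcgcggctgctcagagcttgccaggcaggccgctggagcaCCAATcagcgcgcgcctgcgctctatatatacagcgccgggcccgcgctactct
Hist1h4i: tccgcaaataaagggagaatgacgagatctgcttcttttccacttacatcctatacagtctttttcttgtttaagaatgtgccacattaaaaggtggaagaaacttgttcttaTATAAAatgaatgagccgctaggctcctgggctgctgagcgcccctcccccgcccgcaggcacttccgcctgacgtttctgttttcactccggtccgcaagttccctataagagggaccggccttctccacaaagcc
Hist1h2ac: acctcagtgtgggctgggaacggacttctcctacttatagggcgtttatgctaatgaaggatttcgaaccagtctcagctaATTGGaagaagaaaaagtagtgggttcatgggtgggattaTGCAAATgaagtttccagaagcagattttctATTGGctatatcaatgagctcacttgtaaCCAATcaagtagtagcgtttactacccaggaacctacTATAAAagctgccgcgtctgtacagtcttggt

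The Hist1h2ac stretch is also the promoter of its neighbour Hist1h2bc, which starts 250 bases away on the other strand. Such head-to-head pairs of an H2a and an H2b gene occurred 12 times, with 175 to 305 bases between the start sites. Of the 11 pairs with counts, the H2b gene had the higher mean level per kb in 7 and the H2a gene in 4. Hist1h2bc had 46.3 CPM per kb and Hist1h2ac 3.46, and Hist1h2bg had 46.1 and its neighbour Hist1h2ae 3.97. In the opposite direction, the H2a gene Hist1h2ao had 11.8 CPM per kb and its neighbour Hist1h2bq 0.271. The ratio of H2b to H2a level per kb thus ran from 0.023 to 13.4 in pairs that share the sequence between them. Annotated length enters this ratio: Hist1h2ac has 2482 bases and Hist1h2bc 1156, and their raw counts differed 6.22 times. Most of the sequence of Hist1h2ao and of Hist1h2bq also occurs in other genes, so their levels are uncertain.

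The histone genes together made up 0.0298 to 0.0598% of each library's counts, or 3977 to 11606 reads. Hist1h1c, a linker histone gene at chr13:23738808-23740367, alone held 36.9% of them. The 3 highest genes held 59.7% and the 6 highest 73.3%, while the 40 lowest held 6.78%. Per kb the order was led by Hist1h1c (103 CPM per kb), the H4 gene Hist1h4i (70.0), and the H2b genes Hist1h2bc (46.3), Hist1h2bg (46.1) and Hist3h2ba (18.3). Levels of single genes are given as CPM after TMM scaling, which corrects for a few very abundant genes, and 1 CPM stood for 8.37 to 24.8 reads depending on the library.

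Within every library H1 held the largest share of histone gene counts and H2b the next. H1 had 31.4 to 47.8% and H2b 26.8 to 35.5%, H4 had 9.63 to 25.9%, H2a 5.04 to 8.73% and H3 3.99 to 9.57%. The H4 share was highest in RH VEH 2 (25.9%) and WT MET 2 (20.7%), the libraries rich in mitochondrial counts, and their H1 shares were the lowest (31.4 and 34.1%). Nucleosomes hold H2A, H2B, H3 and H4 in equal numbers, so these shares of counts do not follow the proportions of the proteins. The counts are not scaled for gene length. The 5 genes without any unique sequence, described below, are H2a, H3 and H2b genes. The part of length and of copies in these shares was not tested.

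**Figure D2:**
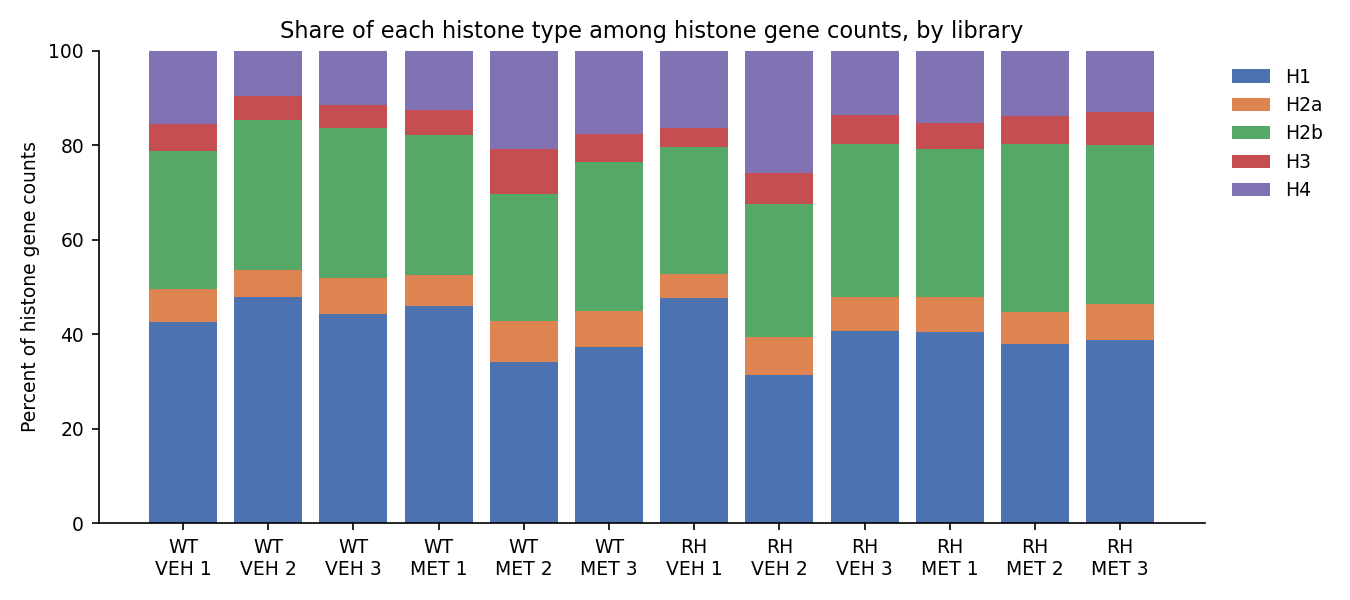
Percent of each library's histone gene counts in genes of each histone type, for the 12 libraries. H1 and H2b fill most of every bar, and the H4 part is tallest in RH VEH 2 and WT MET 2.

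Of the 67 genes, 52 passed the filter on low counts (H1 5, H2a 12, H2b 15, H3 8, H4 12). The other 15 never exceeded 15 reads in a library, and 7 of them had 0 counts in all 12: Hist2h2aa1, Hist2h2aa2, Hist2h3c1, Hist2h3b, Hist2h2bb, Hist1h2ba and Hist1h2aa. Near-identical copies bear on this. Each M21 histone transcript was cut into windows of 150 bases, the read length, and a window was counted as unique when no transcript of another gene, a copy elsewhere or an overlapping model, held it. In 5 genes no window was unique, and these are the first 5 of the 7 genes at 0. Their counts therefore cannot be read as lack of expression. Hist1h2ba and Hist1h2aa, a head-to-head pair of the testis type, had 88.1% and 100% unique windows and 0 counts. In 24 genes less than 50% of windows were unique, namely these 5 and another 19, and the median of those 19 was 1.17 CPM per kb. The 13 genes with only unique windows had a median of 3.28 CPM per kb. Levels of the H2a gene Hist1h2ao (8.46% unique) and of others with many copies are uncertain. Such genes named below include Hist1h3h (9.54%), Hist1h2ai (13.9%), Hist1h4m (14.2%), Hist1h2bk (39.1%), Hist1h2ad (40.7%) and Hist1h4k (46.6%). Hist1h1c (100%), Hist1h4i (97.9%) and Hist1h2bc (82.6%), by contrast, are largely unique.

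The design asks whether the mutation and metformin change expression. No histone gene passed an adjusted p of 0.05 in any of the 7 comparisons by edgeR's quasi-likelihood test (Benjamini-Hochberg over 15003 genes). Few other genes did either: 0% were called in RH against WT under vehicle, 0.00667% (1 gene) under metformin, 0% in metformin against vehicle in WT, 0% in RH and 0% in the difference of these metformin effects. In RH against WT over both treatments 0.00667% were called, and 0% in metformin against vehicle over both genotypes. The smallest adjusted p of any histone gene was 0.648, in the difference of the metformin effects. At an unadjusted p under 0.05, edgeR gave 2, 9, 3, 5, 7, 3 and 0 of 52 histone genes in these comparisons, where 2.03, 5.78, 4.03, 2.43, 6.21, 2.65 and 1.63% of all genes passed, and DESeq2 called none after adjustment. The values that follow describe direction and size only.

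RH MET had the lowest summed histone level. All 67 genes summed to 333 to 388 CPM in the RH MET libraries and 463 to 529 in WT MET. Under vehicle they summed to 386 to 595 in RH and 369 to 518 in WT. On this scale RH MET did not overlap WT MET, and it overlapped both vehicle groups. Group means were 363 ± 27.8 in RH MET and 503 ± 35.1 in WT MET, and 485 ± 105 in RH and 438 ± 75.1 in WT under vehicle (SD, n = 3). As a plain share of all counts, WT MET 2 (0.0378%) lay below RH MET 2 (0.0403%) and RH MET 3 (0.0439%), so these groups overlapped. The mean share was also lower in RH VEH (0.0448%) than in WT VEH (0.0466%), and that of RH MET was still the lowest (0.0401%). With mitochondrial genes left out of the total, RH MET (0.0368 to 0.0453%) did not overlap WT MET (0.0519 to 0.0571%), and RH VEH averaged 0.0528% against 0.0476% in WT VEH. In TMM-scaled CPM, of the 52 tested genes, 27 had their lowest group mean in RH MET, 19 in WT VEH, 6 in RH VEH and 0 in WT MET, while 27 had their highest in WT MET and 17 in RH VEH. Without WT MET 2 and RH VEH 2, 22 had their lowest mean in RH MET, 18 in WT VEH, 9 in RH VEH and 3 in WT MET. In bulk RNA, fewer cells in S phase and less histone RNA per cell cannot be told apart.

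Under vehicle, the tested histone genes had a median log2 fold change of 0.34 in RH against WT, with 38 higher and 14 lower, beside 0.0023 over all genes. Under metformin the direction was opposite, with a median of −0.58 and 5 higher against 47 lower, beside −0.017 over all genes (7194 higher, 7809 lower). Metformin against vehicle gave 0.53 in WT, with 47 higher and 5 lower, beside 0.013. In RH it gave −0.46, with 9 higher and 43 lower, beside −0.0054. The difference of the 2 metformin effects, RH minus WT, had a median of −0.91, with 3 higher and 49 lower, beside −0.020. These comparisons share their groups pairwise, so they are not separate pieces of evidence. Over both treatments RH against WT was −0.11, and over both genotypes metformin against vehicle was 0.035.

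Within each deposit round the direction was kept in the 4 comparisons of group pairs and in the difference, and the sizes varied. In either round alone, all 4 of these pairs include a group of 1 library, so the values are effect sizes only. The medians over both treatments or genotypes did not keep theirs: RH against WT was −0.089 in round 1 alone and 0.058 in round 2 alone, and metformin against vehicle −0.24 and 0.28. RH against WT under metformin had a median of −0.42 in round 1 alone and −0.63 in round 2 alone. Under vehicle it was 0.15 and 0.53. Metformin against vehicle in WT was 0.17 in round 1 and 1.02 in round 2, and in RH it was −0.57 and −0.29. Without WT MET 2 and RH VEH 2 the genotype medians were 0.16 under vehicle and −0.45 under metformin, and the metformin medians 0.27 in WT and −0.25 in RH. Single libraries set some of these sizes. Without WT VEH 3, RH against WT under vehicle was 0.081 (30 higher, 22 lower), metformin in WT 0.18 and the difference −0.61. RH against WT under vehicle was 0.22 without WT VEH 2 and 0.17 without RH VEH 2, metformin in WT was 0.26 without WT MET 2, and metformin in RH was −0.25 without RH VEH 2. The median of RH against WT under metformin ran from −0.76 to −0.45 when each was left out.

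Counts of single genes at looser limits follow, each beside the share over all genes. At an unadjusted p under 0.05, 9 of 52 histone genes were lower and 0 higher in RH against WT under metformin, where 5.78% of all genes passed in either direction. In the other comparisons 2 passed in RH against WT under vehicle, both higher (all genes 2.03%), 3 for metformin in WT, all higher (4.03%), 5 for metformin in RH, all lower (2.43%), and 7 for the difference, all lower (6.21%). Over both treatments 3 passed in RH against WT, all lower (2.65%), and over both genotypes 0 passed for metformin (1.63%). Groups that do not overlap in CPM were counted next. In RH against WT under metformin 15 of 52 lay wholly lower and 0 wholly higher, while 8.94% of all genes lay wholly lower and 7.97% wholly higher. Metformin in WT left 10 wholly higher (all genes 4.98%) and 0 wholly lower (4.4%). Metformin in RH left 7 wholly lower (2.81%) and 2 wholly higher (4.11%). Under vehicle, RH against WT left 2 wholly higher (2.71%) and 0 wholly lower (3.23%).

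By type, H4 genes had the widest medians in 4 of these 5 comparisons. The H4 medians were 0.68 for RH against WT under vehicle, −0.72 under metformin, 0.66 for metformin in WT, −0.71 for metformin in RH and −1.47 for the difference. All 12 tested H4 genes were lower in RH under metformin, and all 12 were higher with metformin in WT. H1 medians were 0.18, −0.55, 0.39, −0.53 and −0.60 in the same order, over 5 genes. H2a medians were 0.28, −0.46, 0.39, −0.31 and −0.67, and H2b medians 0.28, −0.54, 0.28, −0.55 and −0.83. H3 genes had 0.13, −0.76, 0.53, −0.22 and −0.69, and theirs was the widest under metformin. In the fit described here all types had the same sign within each of these 5 comparisons. In RH against WT under metformin every type kept a negative median in all 23 alternative fits. RH against WT under vehicle was the least stable, and there a type's median lost its positive sign in 7 of those fits. With library totals in place of TMM the medians were −0.10 for H1 and −0.08 for H3. Without WT VEH 3 they were −0.15 for H2a and −0.30 for H3, and in round 1 alone −0.14 for H2a and −0.06 for H3. In the other 4 fits they lay between −0.05 and 0.00 for H2a, and H3 was −0.02 in 1 of them. For metformin in RH the H3 median was 0.05 with library totals and with the library number as a block. For metformin in WT the H2b median was −0.13 in round 1 alone. Differences between types were not tested.

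**Figure D3:**
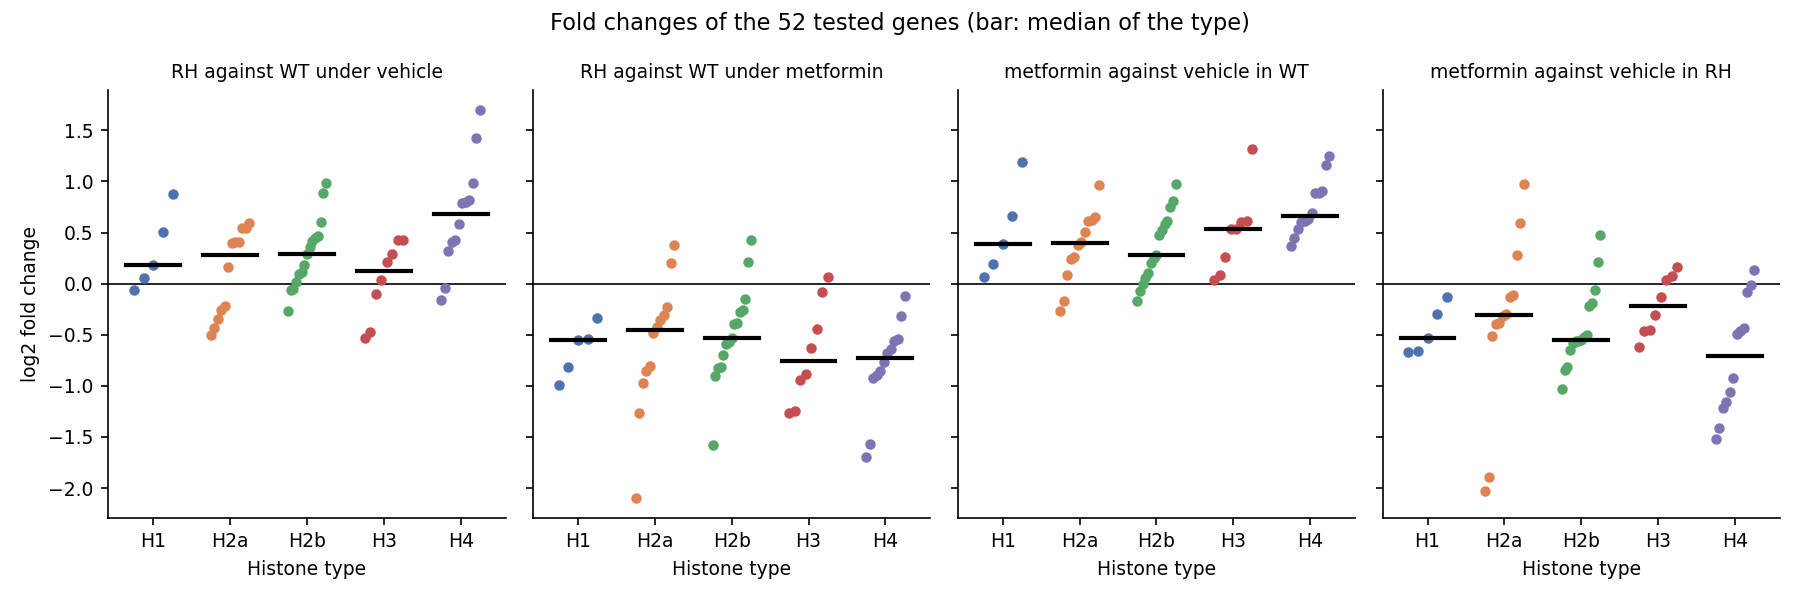
Log2 fold change of each of the 52 tested histone genes by type in 4 comparisons, with a bar at the median of the type. Most points lie above 0 for RH against WT under vehicle and for metformin in WT, and below 0 in the other 2 panels; no single gene passed the adjusted threshold.

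Hist1h1c, the most abundant of the linker histone genes, had 118, 125 and 129 CPM in RH MET and 135, 149 and 218 in WT MET. The vehicle groups spread more widely, at 148, 188 and 197 CPM in WT VEH and 106, 141 and 265 in RH VEH. RH MET lay below all WT libraries, while RH VEH held both the lowest and the highest library of the 12. Its log2 fold change in RH against WT under metformin was −0.55 ± 0.21 (SE), with edgeR adjusted p = 0.738.

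The other H1 genes were far less abundant. Hist1h1a, also a linker histone gene, had 5.85, 6.43 and 10.4 CPM in WT MET against 2.52, 3.31 and 3.36 in WT VEH, and these groups did not overlap. RH VEH had 3.10, 4.72 and 10.8 and RH MET 2.21, 4.12 and 4.43 CPM. Metformin in WT had a log2 fold change of 1.19 ± 0.46 (edgeR adjusted p = 0.876). Hist1h1d reached 11.2 CPM in RH VEH 2 and Hist1h1e 10.9 in WT MET 2, the highest library of each.

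Hist1h2bc, the most abundant H2b gene, had the smallest unadjusted p of the set. It had 38.4, 42.5 and 45.6 CPM in RH MET and 49.6, 51.2 and 78.7 in WT MET, so these groups did not overlap. RH VEH had 44.2, 55.2 and 68.2 CPM and WT VEH 46.0, 60.2 and 62.6. The 2 lowest libraries were RH MET 1 and 3, and RH VEH 3 lay below RH MET 2. Its log2 fold change was −0.59 ± 0.16 in RH against WT under metformin, with unadjusted p = 0.0028 and adjusted p = 0.738 by edgeR, and −0.50 ± 0.16 for metformin in RH (edgeR adjusted p = 0.932).

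Hist1h2bg differed in sign from most. It had 27.3, 38.2 and 38.7 CPM in RH MET and 15.3, 24.1 and 42.3 in WT MET. Vehicle levels were 16.01, 25.6 and 36.7 in RH and 20.5, 26.0 and 31.4 in WT. All groups overlapped, and the 2 lowest libraries were WT MET 2 and RH VEH 2. Its log2 fold change for RH against WT under metformin was 0.43 ± 0.37 (edgeR adjusted p = 0.765), the highest of the 52. Hist2h2be, an H2b gene whose model has AATAAA near its end and no loop of the searched form, had 15.2 to 23.8 CPM in the 12 libraries.

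Hist1h2bk, a low H2b gene, had 0.927, 1.06 and 1.10 CPM in WT VEH and 1.40, 1.95 and 2.43 in WT MET. RH VEH had 1.79, 1.97 and 2.87 CPM and RH MET 1.19, 1.24 and 1.77. WT VEH lay below every library of the other groups. Only 39.1% of the windows of Hist1h2bk were unique, so its level is uncertain. The log2 fold change for RH against WT under vehicle was 0.99 ± 0.39 (edgeR adjusted p = 0.977).

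Hist1h4i was the only histone gene called under any alternative. This H4 gene, at chr13:22040636-22041362 and with the loop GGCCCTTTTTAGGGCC, had 34.8, 35.8 and 37.4 CPM in RH MET. It had 47.5, 58.5 and 74.6 in WT MET. Vehicle levels were 37.8, 72.4 and 92.8 in RH and 28.6, 30.9 and 59.9 in WT. RH MET did not overlap WT MET or RH VEH, though RH VEH 3 was just above it, and WT VEH lay on both sides. The log2 fold change was −0.77 ± 0.36 in RH against WT under metformin, 0.79 ± 0.36 under vehicle and −1.55 ± 0.53 for the difference of the metformin effects, with edgeR adjusted p of 0.738, 0.977 and 0.648. Without the filter on low counts the difference was −1.46 ± 0.28 with edgeR adjusted p = 4.75e-05, and adjusted p was 0.0149 under vehicle, 0.0249 under metformin and 0.000664 for metformin in RH. Without that filter 431 genes passed for the difference in place of 0, of which 412 were genes that the filter keeps. By DESeq2 with the filter the difference had adjusted p = 0.602.

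Other H4 genes were low, and many had the same signs. Hist1h4h had 1.19, 1.62 and 1.77 CPM in RH MET and 2.13, 2.89 and 3.38 in WT MET, without overlap. RH VEH had 1.52, 3.69 and 7.17 CPM and WT VEH 1.02, 1.37 and 2.21. Its log2 fold change for the difference was −2.32 ± 0.77 (edgeR adjusted p = 0.648). Hist1h4m had 1.29, 1.57 and 1.79 CPM in RH MET and 1.83, 3.49 and 4.77 in WT MET. Vehicle levels were 1.55, 1.79 and 1.97 in RH, and 0.780, 1.49 and 1.5 in WT. WT MET was above both RH MET and WT VEH. Most windows of Hist1h4m also occur in Hist1h4n (14.2% unique), so its level is uncertain. Hist2h4 had 0.755, 0.843 and 0.845 CPM in RH MET and 1.36, 2.20 and 3.75 in WT MET, with a log2 fold change of −1.70 ± 0.59 (edgeR adjusted p = 0.738). At these levels a library holds few reads per gene. Hist1h4d ranged from 2.47 to 6.45 CPM and Hist1h4k from 0.726 to 3.58.

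H3 genes gave mixed values. Hist1h3a had 3.70, 3.89 and 10.5 CPM in WT MET against 1.31, 2.54 and 3.41 in WT VEH, without overlap, and 1.54, 2.64 and 3.30 in RH MET. WT MET 2 was the single highest library. The log2 fold change for metformin in WT was 1.32 ± 0.54 (edgeR adjusted p = 0.876). Hist1h3d was even, at 4.41 to 8.36 CPM, and Hist1h3c ranged from 3.48 to 8.62. Hist1h3e (2.13 to 8.62 CPM) and Hist1h3h (0.446 to 2.84) had log2 fold changes of −0.48 ± 0.47 and −0.53 ± 0.57 in RH against WT under vehicle (edgeR adjusted p = 0.977 for both).

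Among H2a genes, Hist1h2ac had 5.74 to 11.4 CPM, Hist1h2ao 2.73 to 9.03 and Hist3h2a 2.86 to 14.4, and for each the groups overlapped in all 4 comparisons of group pairs. Hist1h2ai, at 0.108 to 2.03 CPM, had a log2 fold change of −2.03 ± 0.75 for metformin in RH (edgeR adjusted p = 0.932). Hist1h2ad was higher with metformin in RH, at 1.57, 1.83 and 2.21 CPM in RH MET against 0.717, 0.974 and 1.28 in RH VEH, and its log2 fold change of 0.97 ± 0.56 had an edgeR adjusted p of 0.932. The sign of some fold changes depended on which libraries entered for Hist1h2ab, an H2a gene (1.41 to 3.97 CPM), and for the H2b genes Hist1h2bm (0.871 to 3.70) and Hist1h2bn (0.767 to 1.93).

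**Figure D4:**
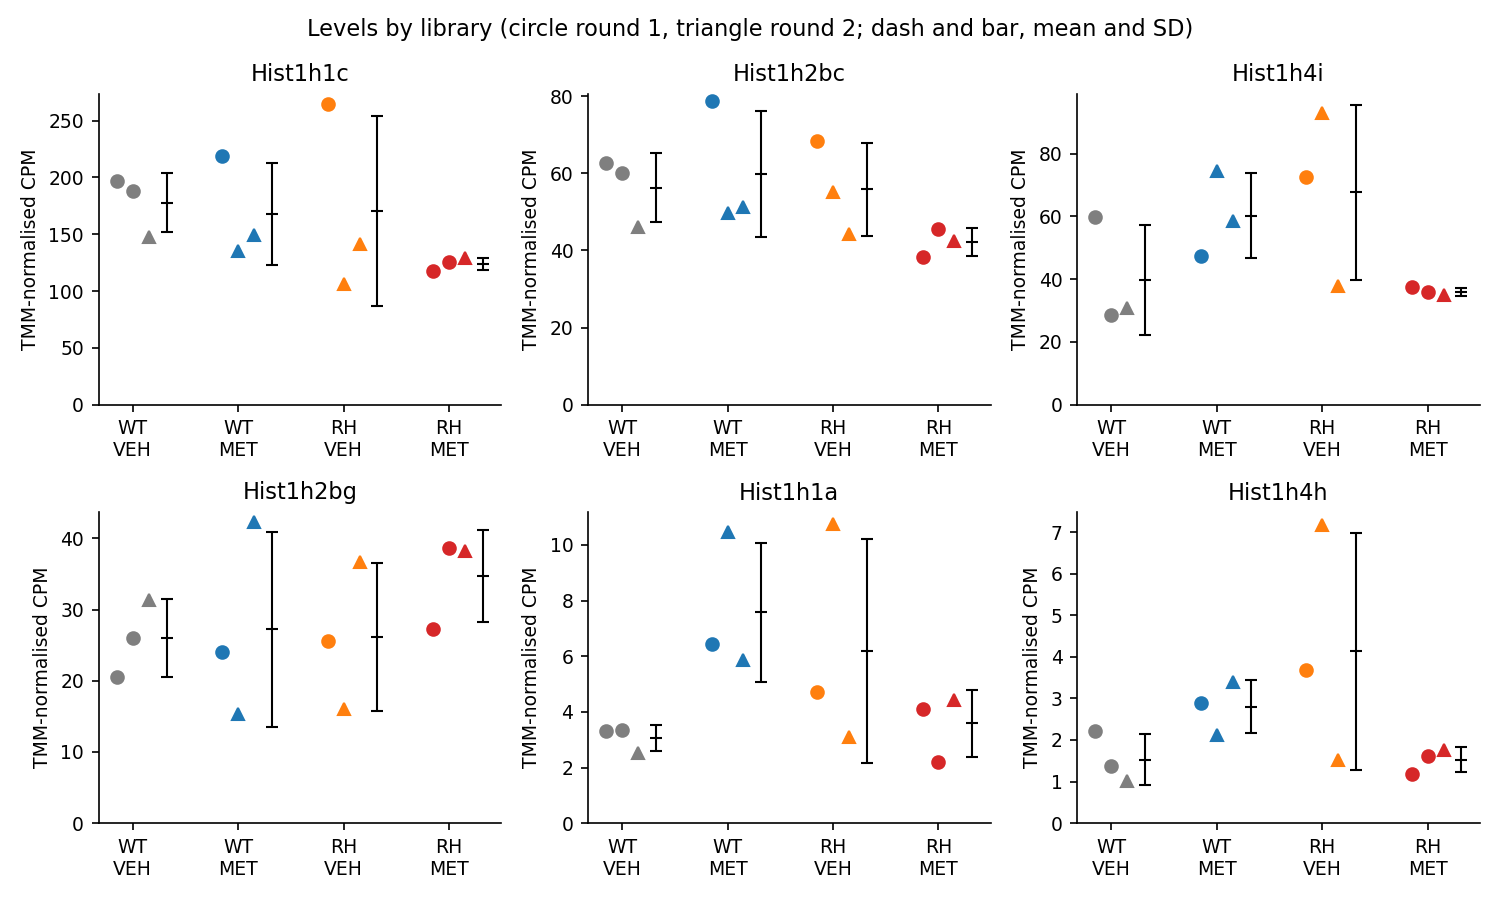
CPM after TMM scaling of 6 histone genes in each library, by group, with circles for round 1 and triangles for round 2. A dash and bar beside the points give the group mean and SD (n = 3). RH MET points lie below all WT MET points for each of these 6 genes but Hist1h2bg. Other groups hold the lowest point for some of the 6, such as WT VEH 2 for Hist1h4i and RH VEH 2 for Hist1h1c. The 6 genes do not stand for the set. Of the 52 tested histone genes, 15 lay wholly lower in RH MET than in WT MET and 0 wholly higher. Of all genes, 8.94% lay wholly lower and 7.97% wholly higher.

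Spread within groups was large beside these differences. The median coefficient of variation over the 52 tested genes was 40.5% in RH and 38.6% in WT under vehicle, and 26.2% in RH and 37.8% in WT under metformin. A gene's highest library was a median of 4.10 times its lowest. The 2 libraries rich in mitochondrial counts held much of that range after TMM scaling: 19 genes were highest in WT MET 2 and 17 in RH VEH 2. As a share of all counts, by contrast, RH VEH 2 had the lowest histone total of the 12 libraries (0.0298%), and WT MET 2 (0.0378%) was the third lowest. Without mitochondrial genes in the total they had 0.0503 and 0.0567%, within the 0.0368 to 0.0622% of all 12. In CPM after TMM scaling, the mean of these libraries against the mean of the other 10 had a median ratio of 1.73, with 44 genes above 1 and 8 below. All 12 tested H4 genes were above 1, with a median of 1.83. The exceptions included the abundant genes Hist1h1c (0.717) and Hist1h2bg (0.504). Genes whose model ended within 100 bases of the loop had a median ratio of 1.81, and those that ran on 1.44. Each of the 2 libraries is in a group whose histone levels were high, WT MET and RH VEH, and the part of these libraries in the group differences is given by the values without them.

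Among 17 listed small RNAs without a poly(A) tail, Rn7sk was high in the same libraries. This RNA, which binds the elongation factor P-TEFb, was highest in WT MET 2 (9.23 CPM), then RH VEH 2 (7.65) and WT VEH 1 (7.50). It had 0.532 to 4.19 CPM in the other 9 libraries, with 0.701 to 1.88 in RH MET, and its ratio of the 2 libraries to the other 10 was 3.45. Of the 17 listed small RNAs, 4 passed the filter, and they did not share a direction. In RH against WT under vehicle 1 was higher and 3 were lower (median −0.48), opposite in sign to the histone median. Under metformin 2 were higher and 2 lower (−0.66). The tested telomerase RNA Terc averaged 0.421 CPM and had a log2 fold change of 1.39 ± 0.76 for metformin in RH (edgeR adjusted p = 0.932). Their part in the histone values was not tested.

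Markers of T and NK cells, which a lineage-negative gate is meant to remove, were also low in RH MET. All 14 listed markers were tested and none was at 0. Their summed level was 20.9 to 45.6 CPM in RH and 56.4 to 82.4 in WT under metformin, and 61.3 to 82.0 in RH and 39.6 to 66.8 in WT under vehicle. All 14 had negative fold changes in RH against WT under metformin (median log2 fold change −1.25) and for metformin in RH (−1.20). In the first of these, 8 of 14 lay wholly lower, as did 8.94% of all genes. In RH against WT under vehicle 9 of 14 were higher (median 0.27), and 11 of 14 for metformin in WT (0.30). Granulocyte markers (14 of 14 tested, none at 0) summed to 1504 CPM in WT MET 2. They summed to 1600 in RH VEH 2 and to 3523 to 7509 elsewhere. Their fold changes ran opposite to those of the histone genes. All 14 were positive in RH against WT under metformin (median 0.95) and for metformin in RH (1.12), with 4 and 7 wholly higher. Of all genes, 7.97 and 4.11% lay wholly higher there. In RH against WT under vehicle 13 of 14 were negative (−0.59), and all 14 for metformin in WT (−0.44). None of the T and NK cell or granulocyte markers was called in these 4 comparisons. Megakaryocyte markers (8 of 9 tested, none at 0) summed to 2052 CPM in WT MET 2 and 1632 in RH VEH 2. They summed to 598 to 1118 elsewhere. All 8 were negative in RH against WT under metformin (median −0.64). All 8 were positive in RH against WT under vehicle (0.39) and for metformin in WT (0.77), the signs of the histone medians. Groups did not overlap for 3, 2 and 5 of the 8 in these comparisons (all genes 8.94, 2.71 and 4.98% in those directions). In RH against WT under metformin, 7 of 9 dendritic cell, 11 of 14 erythroid and 7 of 10 B cell markers were lower. So were 7 of 9 stromal and endothelial markers, and 7 of 10 monocyte and 4 of 7 mast cell and basophil markers were higher. With metformin in WT, 8 of 9 dendritic cell, 9 of 14 erythroid and 6 of 9 stromal and endothelial markers were higher. There 6 of 7 mast cell and basophil markers were also higher, and 7 of 10 monocyte and of B cell markers lower. The part of these cell types in the histone values was not tested.

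**Figure D5:**
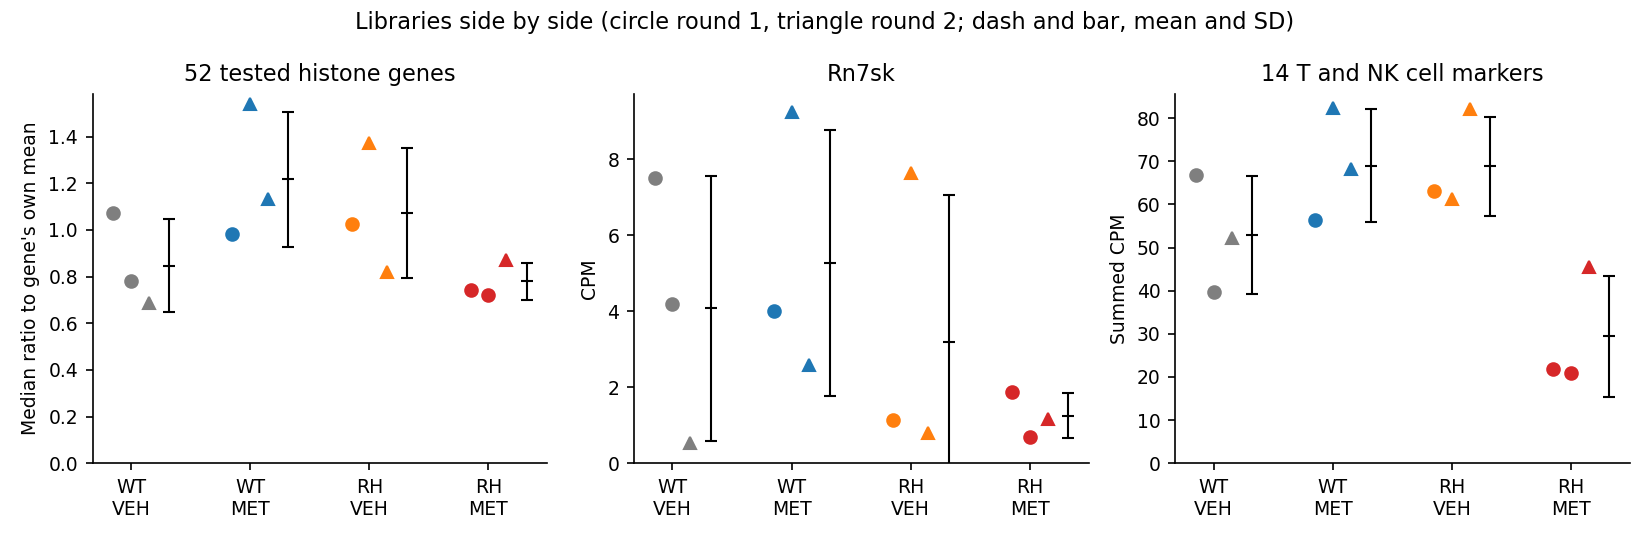
By library, the median over the 52 tested histone genes of the ratio to the gene's own mean (left), the CPM of Rn7sk (middle) and the summed CPM of 14 T and NK cell markers (right), with group mean and SD (n = 3). WT MET 2 is the highest library in all 3 panels. Libraries of other groups are among the low ones too: WT VEH 3 is lowest in the left and middle panels, and WT VEH 2 lies below RH MET 3 in the right panel.

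Genes that act with histone supply had smaller median fold changes, and none of them was called. S phase genes, the replication machinery (34 of 34 tested), had medians of 0.074 for RH against WT under vehicle, −0.078 under metformin, 0.024 for metformin in WT and −0.16 for metformin in RH. In the last, 31 of 34 were lower, led by E2f1, a transcription factor of S phase entry, at −0.44 ± 0.17 (edgeR adjusted p = 0.932). Pcna, the replication clamp, had 662 to 1026 CPM and Rrm1, a subunit of ribonucleotide reductase, 692 to 1055. Mitosis genes (20 tested) had a median of −0.0069 for metformin in RH, with 10 lower and 10 higher.

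Replacement histone genes, which are made throughout the cell cycle with poly(A) tails, had medians of the same signs. Over 11 tested genes they were 0.038, −0.21, 0.10 and −0.26 in the order of the S phase genes. H1fx, a linker histone of this kind, had the smallest p, at −1.06 ± 0.30 in RH against WT under metformin (edgeR adjusted p = 0.738), followed by H2afv at −0.77 ± 0.27 (the same adjusted p). H3f3b, which makes a replacement form of H3, had 1362 to 2473 CPM and H2afz 566 to 944. Of the 16 genes that make and process histone mRNA, 11 were higher and 5 lower for the difference of the metformin effects (median 0.15). Slbp, the stem-loop binding protein, ranged from 245 to 391 CPM, and Sympk and Zfp473 had the smallest p, at −0.26 ± 0.12 for RH against WT under vehicle and −0.98 ± 0.50 for metformin in WT (edgeR adjusted p 0.977 and 0.876). The 22 chaperones that carry histones to DNA were evenly split for that difference, with 11 higher and 11 lower (median 0.0056). The 2 of smallest p among them, Asf1a and Hat1, lay on the lower side: Asf1a had −0.52 ± 0.20 and Hat1 −0.51 ± 0.23 (edgeR adjusted p = 0.648 for both). Nap1l1 ranged from 484 to 743 CPM and Ssrp1 from 491 to 669.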

How the data were processed

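Raw read counts per gene, whole numbers without normalization, were deposited by the authors in a table of 12 libraries. Per the submitters' processing notes, STAR 2.5, HTSeq 0.6.1 and mm10 were used, and no settings are known for strand or for reads with several matches (not given in the sources used). Column names tie 5 columns to 1 sample, and 7 to a group only. Library numbers are those of the columns. In a smaller table, 6 of 8 columns repeat these counts and 2 match no sample and were not used.

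Counts were fitted with edgeR 4.0.16 in R 4.3.3 (quasi-likelihood, robust; TMM; filterByExpr, minimum count 10, 15003 genes kept) with a mean per group and a term for the round. Calls needed an adjusted p under 0.05 (Benjamini-Hochberg). The biological coefficient of variation was 0.256. DESeq2 1.42.0 and 22 other settings were alternatives. Tested on simulated data for RH against WT under metformin (14711 genes kept), the fit recovered 33% of 100 genes changed 2-fold and 85% of 100 changed 4-fold. It also called 8 unchanged genes. The simulation gave all genes the same biological coefficient of variation, had no effect of the round and changed genes of all levels. Its rates are therefore not those of the histone genes. The members and gene lists were chosen with earlier results of these data known. Genes named are the 3 of highest mean CPM per histone type, the 2 of smallest p in each direction per comparison, those with 0 counts, and for other lists the 2 of smallest p and the 2 of highest mean CPM; further names were chosen after their values were seen.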

Additional observations from a re-analysis of the deposited data

How the results depend on the processing

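In 23 alternative fits the median histone fold change kept its sign in the 4 comparisons of group pairs and in the difference. The medians ran from 0.081 to 0.53 (RH against WT, vehicle), −0.76 to −0.34 (metformin), 0.17 to 1.02 (metformin in WT), −0.57 to −0.17 (metformin in RH) and −1.31 to −0.43 (difference). Library totals in place of TMM gave −0.17 for metformin in RH and −0.43 for the difference, and moved the median of all genes for the difference from −0.020 to 0.37. Blocking by library number, a number that does not pair the libraries (mean correlations −0.18, 0.18 and 0.22), gave medians of 0.12, −0.34, 0.29, −0.22 and −0.46 in these 5 comparisons, and reversed Hist1h2bg (−0.26) and Hist1h2ad (−0.20) in the difference. That replicate block called 0 histone genes in every comparison. Round 1 alone gave 0.17 for metformin in WT, −0.24 over both genotypes and −0.047 for Hist1h3a. Round 2 alone gave 1.02 for metformin in WT, −1.31 for the difference, 0.37 for Hist1h3e, −0.059 for Hist1h2bn, 0.26 for Hist1h2ab and 1.13 for Hist1h2bm, the last 4 reversed. Leaving out 1 library at a time gave 0.18 to 0.71 for metformin in WT and −1.13 to −0.61 for the difference. It took Hist1h2ab from −0.62 to 0.045 and Hist1h2bm from −0.84 to 0.27 for metformin in WT, and Hist1h2bn from −0.26 to 0.40 for RH against WT under metformin. Hist1h2ab (0.045) and Hist1h2bm (0.20) were reversed without WT VEH 1, and Hist1h2bn (−0.26) and Hist1h2bm (0.27) without WT MET 1. Leaving out both libraries rich in mitochondrial counts gave −0.61 for the difference. Without a filter on low counts 1 histone gene, Hist1h4i, was called in 4 comparisons, while 63 to 431 of all genes were called per comparison. DESeq2 called 3, 22, 1, 0, 0, 20 and 0 genes in the 7 comparisons, in the order of the report, with 0 histone genes. The causes of these shifts were not tested. Low histone genes hold few reads per library, so only large changes were detectable.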
